A study of Mus musculus with 8 samples.

Results

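The genes described here act in G2, in mitosis and at the spindle. The list held 50 mouse genes, chosen by symbol for their function in cell division. A probe with 1 of these symbols was found for 46 of the 50, on 49 probes, among 15096 named genes and 21795 tested probes in all. Ccnb1, Ncaph, Smc4 and Espl1 were not analysed here. Anln, Plk1 and Smc2 had more than 1 probe, and each gene is given by its brightest probe unless stated.

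The RNA was from the mouse T cell line CTL-EN, made to express the human GM-CSF receptor chain beta-c, which signals for GM-CSF once its partner chain binds the cytokine. All cells carried that human chain, either wild type or with a glycine in place of a serine (Ser585Gly). All were kept without growth factor for 12 h in RPMI with 0.5% CS, an abbreviation the labels do not spell out, and these cells are the 0 h groups. For the 12 h groups 50 ng/mL human GM-CSF was then added, also for 12 h. Whether each population was a clone or a pool is not stated, and no probe here measures the introduced human chain. Total RNA was hybridised on 8 two-colour arrays that formed a square: 2 edges set Ser585Gly against wild type, at 0 h and at 12 h, and 2 edges set 12 h against 0 h, in each population. An edge had 2 arrays of opposite dye orientation, with the Ser585Gly or 12 h RNA in Cy5 on replicate 1 and in Cy3 on replicate 2. No separate cultures are named in the labels, so the p-values measure only the spread between hybridisations, which may be technical. No array held cells kept for 12 h more without GM-CSF, so GM-CSF and time in culture cannot be told apart.

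Cells enter mitosis when cyclin B and cyclin A activate the kinase Cdk1, which Cdc25 phosphatases switch on and Polo and Aurora kinases assist. Kinetochores then attach chromosomes to the spindle, a checkpoint holds anaphase until all are attached, and the anaphase-promoting complex with Cdc20 ends mitosis by destroying cyclins and securin. Transcripts of most of these genes are low in resting and G1 cells and peak in G2 and mitosis, later than those of DNA replication genes, so in a mixed culture they follow the share of cells in those stages. In RNA from a whole culture, fewer cells in a stage and less RNA per cell cannot be told apart.

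Promoters of such late cell cycle genes are known for a short element, the cell cycle genes homology region (CHR), bound by MuvB complexes, and for CCAAT boxes bound by NF-Y. Promoter windows from 250 bases before to 50 after the gene start were taken from RefSeq (GRCm38.p6) and searched on both strands for the motifs TTTGAA, as well as TTTAAA, and also TTCGAA, each counted here as a CHR, and for CCAAT boxes. Of the 46 measured genes, 39 had a window, and 35 of these 39 held a CHR match. Over windows the share was 90.5% of 42, against 28.8% of all 32851 promoter windows. A CHR match within 50 bases of the gene start was found in 76.2% of the windows of these genes and in 8.62% of all windows. CCAAT was found in 78.6% and 37.4%, and both together in 76.2% and 11.3%. In 95 windows of other mitotic genes, a list also described below, a CHR was found in 49.5%, CCAAT in 57.9% and both in 31.6%. In 50 windows of S phase and DNA replication genes the shares were 34%, 56% and 20%. The lists were chosen by function, and a match is a run of letters, not a measured site.

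The 5 windows printed here are those of Cenpa and Ccnb2, which fell with time, Cdk1, which did not pass in any comparison, Pttg1, which fell and has no match, and Mad2l1, which rose and has no match. Capitals mark CHR and CCAAT matches on either strand, and each sequence reads 5′ to 3′ along the gene.
Cenpa: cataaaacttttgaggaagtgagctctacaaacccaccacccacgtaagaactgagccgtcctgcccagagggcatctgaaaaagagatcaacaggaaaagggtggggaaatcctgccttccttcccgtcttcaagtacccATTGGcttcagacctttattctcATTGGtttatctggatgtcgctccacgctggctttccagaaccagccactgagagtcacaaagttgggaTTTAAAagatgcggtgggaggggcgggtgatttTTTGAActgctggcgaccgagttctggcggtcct
Ccnb2: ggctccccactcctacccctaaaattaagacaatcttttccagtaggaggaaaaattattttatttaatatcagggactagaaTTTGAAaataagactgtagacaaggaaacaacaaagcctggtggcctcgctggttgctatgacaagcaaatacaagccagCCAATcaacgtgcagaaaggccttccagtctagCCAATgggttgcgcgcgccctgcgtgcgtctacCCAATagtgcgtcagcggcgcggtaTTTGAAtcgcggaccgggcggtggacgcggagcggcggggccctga
Cdk1: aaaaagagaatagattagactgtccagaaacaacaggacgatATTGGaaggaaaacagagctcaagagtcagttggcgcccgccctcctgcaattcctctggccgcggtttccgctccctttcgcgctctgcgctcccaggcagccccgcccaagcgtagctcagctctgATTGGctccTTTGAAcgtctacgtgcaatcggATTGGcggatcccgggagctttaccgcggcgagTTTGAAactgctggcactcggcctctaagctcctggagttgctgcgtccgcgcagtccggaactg
Pttg1: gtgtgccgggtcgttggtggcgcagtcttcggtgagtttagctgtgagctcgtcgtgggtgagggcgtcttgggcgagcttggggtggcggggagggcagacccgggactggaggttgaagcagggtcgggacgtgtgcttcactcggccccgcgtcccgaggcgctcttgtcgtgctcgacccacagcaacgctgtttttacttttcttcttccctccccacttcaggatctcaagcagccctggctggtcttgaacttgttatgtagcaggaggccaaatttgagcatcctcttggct
Mad2l1: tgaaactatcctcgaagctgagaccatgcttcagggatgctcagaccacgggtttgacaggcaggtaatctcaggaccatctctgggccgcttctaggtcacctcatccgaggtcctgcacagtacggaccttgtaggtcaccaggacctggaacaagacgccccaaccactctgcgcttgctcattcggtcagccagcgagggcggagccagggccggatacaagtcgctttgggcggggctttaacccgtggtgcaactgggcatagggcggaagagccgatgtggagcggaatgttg
The windows lie at chr5:30666636-30666935 (plus strand) for Cenpa, chr9:70421505-70421804 (minus strand) for Ccnb2, chr10:69352863-69353162 (minus strand) for Cdk1, chr11:43425932-43426231 (minus strand) for Pttg1 and chr6:66534971-66535270 (plus strand) for Mad2l1. Cenpa held CHR matches 17 bases before and 16 after the gene start, counted to the first letter of the match, and CCAAT matches 109 and 86 before it. Ccnb2 held CHR matches 167 before and 4 after, and 3 CCAAT matches. Cdk1 had the same kinds of match as these, with CHR matches 71 and 15 before its start. Of the 9 genes that fell with time 8 held a CHR, as did 27 of the other 30, and 7 of the 9 held CCAAT, as did 23 of the other 30. Within 50 bases of the gene start, 6 of the 9 held a CHR, as did 24 of the other 30; these shares were not tested against each other.

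**Figure D1:**
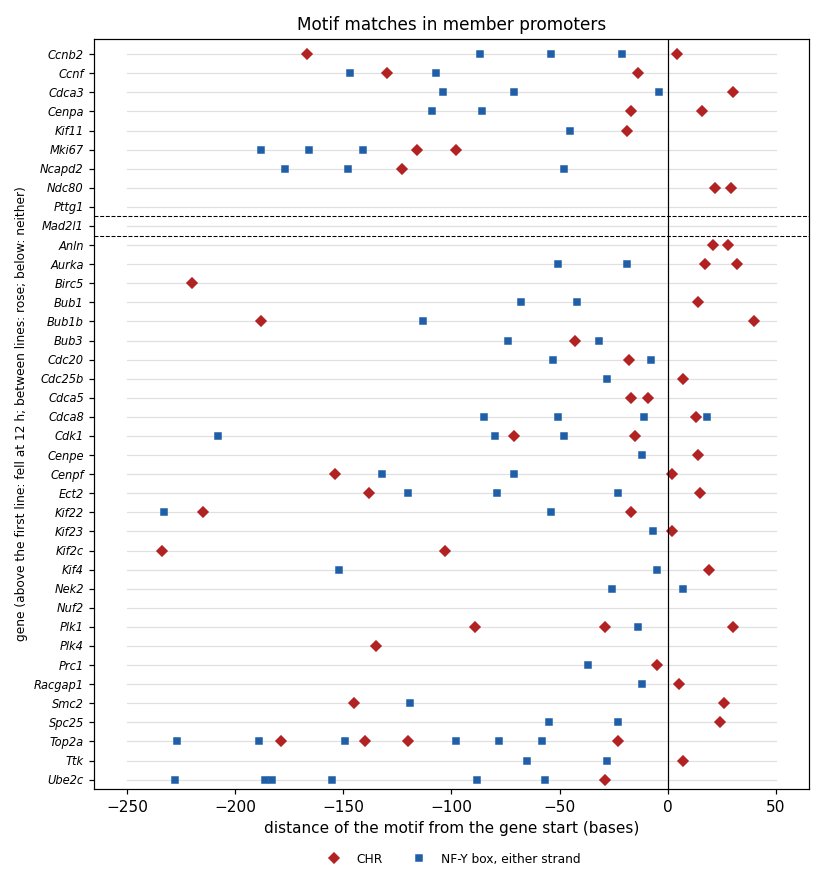
CHR (diamonds) and NF-Y box (squares) matches in the promoter windows of 39 genes, by distance from the gene start in bases, 1 window per gene. Genes above the first dashed line fell at 12 h in at least 1 population, Mad2l1 between the lines rose, and those below did neither; Pttg1, Mad2l1 and Nuf2 hold neither kind of match, and many of the diamonds lie close to the gene start.

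On each array a log2 ratio was computed after background correction and loess and turned so that positive values mean more RNA at 12 h or in Ser585Gly. Fitted differences came from 1 limma model over all 8 arrays. They are given in log2 units with their standard errors and p-values adjusted by Benjamini-Hochberg over all 21795 probes, with 0.05 as the threshold. Median foreground intensity per array ran from 631 to 946 for Cy5 and from 795 to 1105 for Cy3. Replicate 1 of Ser585Gly against wild type at 0 h stood apart, with an SD over all probes of 0.54 against 0.30 to 0.37 on the other 7 arrays. Calls among the 46 genes, but not those of other lists, are therefore also given without it. The 10 of 12 measured T cell markers had brightness percentiles of 56.6 to 98.6 among all probes (median 92.6). The medians of myeloid, B cell, mast cell, fibroblast and erythroid lists were 25.6 to 47.9. The lists overlapped, as the brightest gene of each of these other lists was at 51.0 to 86.4. All of their measured markers were also above empty wells. Of the T cell markers 1 rose and 2 fell in both time comparisons; of the others only the erythroid gene Hba-a1 passed there, as lower. All but 1 of the 46 genes were brighter than the 95th percentile of empty wells, at percentiles 56.1 to 94.1. The exception was Kif22, at 0.838, so its ratios are not read as a level.

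Between 0 h and 12 h with GM-CSF most G2 and mitotic transcripts did not pass the test, and those that passed mostly fell. In wild-type cells 5 of 46 fell and 0 rose (10.9%), against 9.51% of all probes called in either direction, 5.46% higher and 4.04% lower. In Ser585Gly cells 7 fell and 1 rose (17.4%), against 10.5% of all probes, 5.77% higher and 4.73% lower. The median of the 46 fitted differences was −0.06 in wild type and −0.04 in Ser585Gly, beside −0.01 and 0.01 for all probes; with arrays centred on their median in place of loess, the Ser585Gly median was 0.01. No member moved as far as 2-fold: fitted ratios of 12 h to 0 h ran from 0.544 to 1.27 in wild type and from 0.632 to 1.38 in Ser585Gly. Cenpa, Pttg1 and Ncapd2 fell in both populations. On the 4 arrays that compared the times directly, 15 genes (32.6%) were below 0 on all 4, against 18.7% of all probes, and 9 (19.6%) were above 0 on all 4, against 19.98%. The 9 were Cdk1, Cdca5, Cdca8, Mad2l1, Plk4, Birc5, Spc25, Top2a and Anln.

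**Figure D2:**
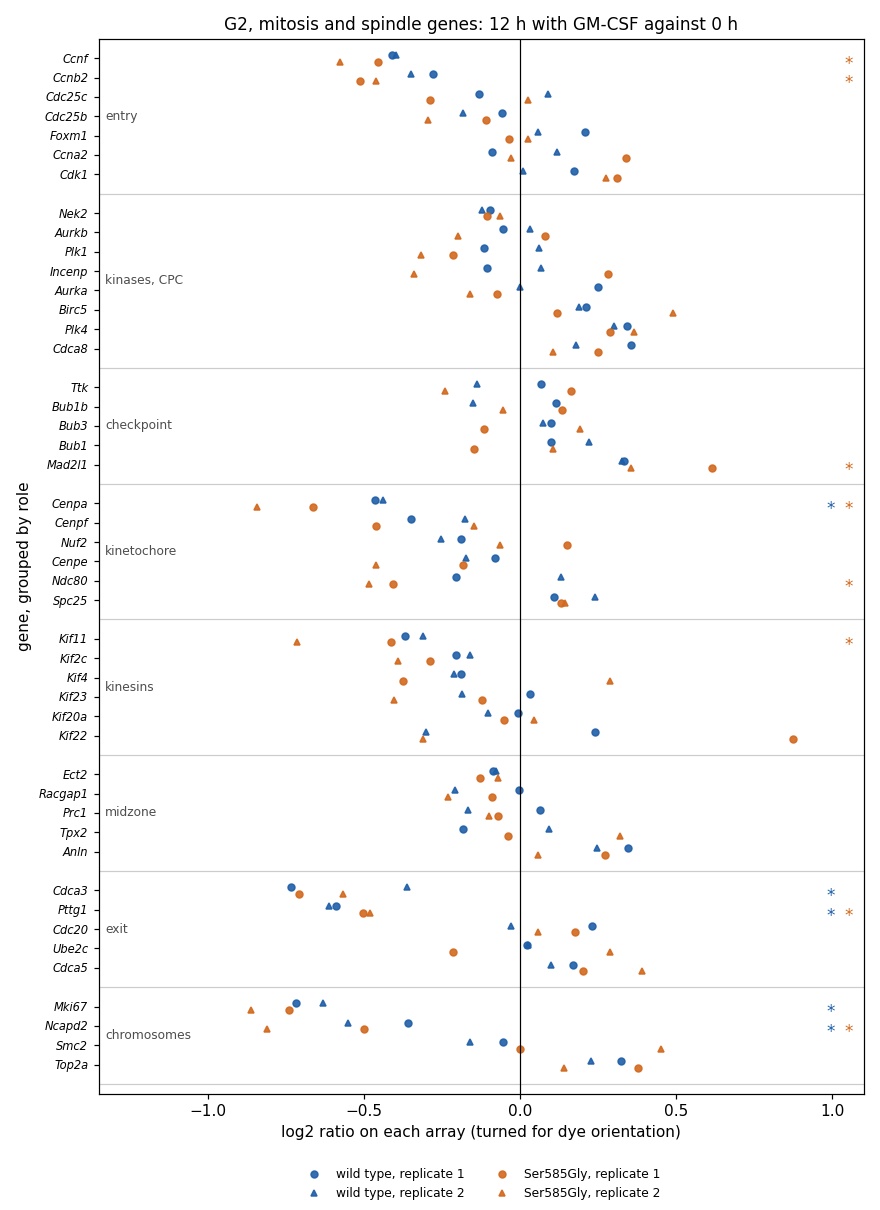
Log2 ratio of 12 h to 0 h on each of the 4 direct arrays for 46 genes grouped by role; circles are replicate 1, triangles replicate 2, and an asterisk marks a fitted difference with adjusted p under 0.05 in the population of that colour. Cenpa, Pttg1, Ncapd2, Mki67, Cdca3, Ccnf and Kif11 lie below −0.3 on all 4 arrays and Mad2l1 above 0.3 on all 4, while most genes lie near 0; Kif22 was no brighter than empty wells.

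Among the 7 measured genes of entry into mitosis, 0 passed in wild type and 2 fell in Ser585Gly. Ccnb2, a B-type cyclin that activates Cdk1, read −0.28 and −0.35 on the wild-type arrays and −0.51 and −0.46 on the Ser585Gly arrays. It was lower on all 4, with a fitted difference of −0.30 ± 0.11 in wild type (adjusted p = 0.141) and −0.51 ± 0.11 in Ser585Gly (adjusted p = 0.0223). Ccnf, an F-box protein that directs the destruction of late cell cycle proteins, read −0.41 and −0.40 in wild type and −0.46 and −0.58 in Ser585Gly. The Ser585Gly arrays were the lower ones, and the fitted difference was −0.37 ± 0.10 (adjusted p = 0.0572) and −0.55 ± 0.10 (adjusted p = 0.0124). Cdk1, the kinase that B-type cyclins activate, read 0.17 and 0.01 in wild type and 0.31 and 0.27 in Ser585Gly, all above 0. Its fitted differences were 0.12 ± 0.10 (adjusted p = 0.522) and 0.26 ± 0.10 (adjusted p = 0.151). Foxm1, a transcription factor of G2 and mitotic genes, read 0.21 and 0.06 in wild type and −0.04 and 0.03 in Ser585Gly. Its fitted differences of −0.06 and 0.19 did not pass (adjusted p = 0.910 and 0.715). The model also uses the mutation arrays, so fitted differences can depart from the direct arrays. The cyclin Ccna2 and the phosphatases Cdc25b and Cdc25c did not pass, with fitted differences of −0.26 to 0.12.

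None of the 8 mitotic kinases and chromosomal passenger genes passed for time in either population. Plk1, the Polo kinase that drives entry and spindle assembly, read −0.12 and 0.06 in wild type and −0.21 and −0.32 in Ser585Gly. Its fitted differences were −0.10 ± 0.12 and −0.19 ± 0.12 (adjusted p = 0.679 and 0.406). Plk4, which starts centriole duplication, was the highest of the group in Ser585Gly at 0.45 ± 0.15 (adjusted p = 0.0948). In wild type it was at 0.20 (adjusted p = 0.466), although all 4 of its direct arrays lay between 0.29 and 0.37. The passenger subunits Birc5, which encodes survivin, and Cdca8, which encodes borealin, were above 0 on all 4 arrays. Incenp, the scaffold of that complex, its kinase Aurkb, and Aurka, the spindle pole kinase, had arrays on both sides of 0. Nek2, a centrosome kinase, lay between −0.07 and −0.12 on all 4, with fitted differences of −0.24 in wild type and 0.04 in Ser585Gly.

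Of the 5 spindle checkpoint genes, Mad2l1 rose in Ser585Gly and was the only one of the 46 to rise in either population. It encodes MAD2, which binds and restrains Cdc20 until chromosomes are attached. It read 0.33 on both wild-type arrays and 0.61 and 0.36 in Ser585Gly. Every array was above 0, and the fitted difference was 0.35 ± 0.09 in wild type (adjusted p = 0.0534) and 0.46 ± 0.09 in Ser585Gly (adjusted p = 0.0176). The checkpoint kinases Bub1 and Ttk, the kinase-related Bub1b and its partner Bub3 had fitted differences between −0.09 and 0.22 and did not pass.

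At the kinetochore 5 of 6 genes had fitted differences below 0 in each population, and 1 fell in wild type and 2 in Ser585Gly. Cenpa, the histone H3 variant that marks centromeres, read −0.47 and −0.44 in wild type and −0.66 and −0.84 in Ser585Gly. It fell in both, with fitted differences of −0.54 ± 0.13 (adjusted p = 0.0349) and −0.66 ± 0.13 (adjusted p = 0.0149). The 2 arrays of each population did not overlap, but the difference between the populations did not pass. Ndc80, the outer kinetochore subunit that holds microtubules, read −0.21 and 0.13 in wild type and −0.41 and −0.48 in Ser585Gly. Only the Ser585Gly arrays lay on the same side, with a fitted difference of −0.45 ± 0.11 (adjusted p = 0.0365) against −0.03 ± 0.11 in wild type (adjusted p = 0.912). Its partners in the same complex, Nuf2 and Spc25, did not pass; Spc25 was above 0 on all 4 arrays, at 0.11 to 0.24. The large kinetochore proteins Cenpe and Cenpf were below 0 on all 4 without passing.

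Of the 6 kinesin motors, 0 passed in wild type and Kif11 fell in Ser585Gly. Kif11, the motor that pushes spindle poles apart, read −0.37 and −0.31 in wild type and −0.41 and −0.71 in Ser585Gly. Its fitted differences were close, at −0.43 ± 0.12 (adjusted p = 0.0586) and −0.47 ± 0.12 (adjusted p = 0.0403). Kif2c, a microtubule depolymerase, lay below 0 on all 4 arrays, from −0.16 to −0.39. The chromokinesin Kif4, Kif20a and the midzone motor Kif23 did not pass. No gene of the spindle midzone and cytokinesis group passed for time: Tpx2, which nucleates spindle microtubules, the bundling protein Prc1, Racgap1 and Ect2, which control the GTPase RhoA, and Anln, which encodes anillin, had fitted differences of −0.25 to 0.31 on their brightest probes.

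Probes of 1 gene did not always move alike. The dimmer probe of Anln read −0.20, 0.05, −0.86 and −0.35 on the time arrays in the order above and passed as lower in Ser585Gly (−0.61, adjusted p = 0.0147), whereas the brighter probe was at 0.16 (adjusted p = 0.417). The dimmer probe of Smc2 passed as higher there (0.45, adjusted p = 0.027), beside 0.19 on the brighter probe (adjusted p = 0.432).

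Of the 5 genes of anaphase and mitotic exit, 2 fell in wild type and 1 in Ser585Gly. Pttg1, which encodes securin, the inhibitor of separase, read −0.59 and −0.61 in wild type and −0.50 and −0.48 in Ser585Gly. All 4 arrays were alike, and it fell in both populations, with fitted differences of −0.54 ± 0.11 (adjusted p = 0.0174) and −0.55 ± 0.11 (adjusted p = 0.0145). Cdca3, a trigger of mitotic entry that is destroyed at exit, read −0.73 and −0.36 in wild type and −0.71 and −0.57 in Ser585Gly. The arrays of the populations overlapped, with fitted differences of −0.66 ± 0.15 (adjusted p = 0.0313) and −0.53 ± 0.15 (adjusted p = 0.0659). Cdc20, the activator of the anaphase-promoting complex, read 0.23 and −0.03 in wild type and 0.18 and 0.06 in Ser585Gly and did not pass (0.11 ± 0.13 in each). Ube2c, a ubiquitin-conjugating enzyme of that complex, did not pass, nor did Cdca5, which encodes sororin, a protector of cohesion, at 0.10 to 0.39 on the 4 arrays.

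Among the 4 measured genes of chromosome structure, Mki67 and Ncapd2 fell in wild type and Ncapd2 in Ser585Gly. Mki67 encodes Ki-67, the proliferation marker that coats mitotic chromosomes. It read −0.72 and −0.63 in wild type and −0.74 and −0.86 in Ser585Gly, so the direct arrays were slightly lower in Ser585Gly. The fitted differences had the other order, −0.88 ± 0.21 in wild type (adjusted p = 0.0377) and −0.60 ± 0.21 in Ser585Gly (adjusted p = 0.125). The model also uses the mutation arrays, 1 of which read −1.56. Without that array, replicate 1 of the mutation edge at 0 h, Mki67 was at −0.72 (adjusted p = 0.0032) and −0.76 (adjusted p = 0.0023). Ncapd2, a subunit of condensin, read −0.36 and −0.55 in wild type and −0.50 and −0.81 in Ser585Gly, and fell in both, with fitted differences of −0.46 ± 0.11 (adjusted p = 0.0348) and −0.65 ± 0.11 (adjusted p = 0.00779). Top2a, the topoisomerase that untangles sister chromatids, read 0.32 and 0.23 in wild type and 0.38 and 0.14 in Ser585Gly. All 4 were above 0, but the fitted differences of 0.28 ± 0.10 and 0.26 ± 0.10 did not pass (adjusted p = 0.136 and 0.164). Smc2, a core condensin subunit, did not pass on its brighter probe.

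These calls rested on few arrays. Without the array that stood apart, 8 genes passed in wild type, 1 higher and 7 lower, with Ccnf, Ccnb2 and Mad2l1 added, against 15.2% of all probes. In Ser585Gly 12 passed without it, 2 higher and 10 lower, with Mki67, Cdca3, Kif2c and Plk4 added, against 15.8%. Leaving out either direct array of a comparison left 0 calls among the 46 in that comparison, where 2.82% and 1.89% of all probes were called in wild type and 1.23% and 4.24% in Ser585Gly without replicate 1 and replicate 2, respectively. In wild type the count was also 0 without replicate 1 of time in Ser585Gly, 1 when replicate 2 of that edge or of the mutation edge at 12 h was left out, and 2 when it was replicate 2 of the mutation edge at 0 h. With dye-swap pairs averaged before the fit, which leaves 1 residual degree of freedom, 0 passed in wild type and Cenpa, Ncapd2 and Ccnf in Ser585Gly, against 4.9% and 6.15% of all probes. Print-tip loess and the deposited log2 values each gave 14 calls in wild type (5 higher, 9 lower) and 17 in Ser585Gly (6 higher, 11 lower), where the share of all probes called was 18.8% to 19.6%. Dye-swap arrays had the same sign for 32 of 46 genes in wild type and 30 of 46 in Ser585Gly, beside 64.8% and 62.6% of all probes.

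Genes of DNA replication, the stage before G2, from a list also chosen by function, mostly rose where they passed. Of 49 measured genes of S phase and DNA replication, 7 rose and 0 fell in wild type and 21 rose and 1 fell in Ser585Gly, with medians of 0.21 and 0.35. Of all probes 5.46% passed as higher and 4.04% as lower in wild type, and 5.77% and 4.73% in Ser585Gly. For the difference between the populations 0 of the 49 passed (limma). At an unadjusted p under 0.05, 12 had a larger value in Ser585Gly and 0 a smaller one, beside 821 and 708 of all 21795 probes. On the mutation edge at 0 h the median of the 49 was −0.13, with 37 below 0 and 12 above. At 12 h it was 0.004, with 24 below 0 and 25 above. The edge at 0 h holds the array that stood apart, and this list is not given without that array. Orc2, a subunit of the origin recognition complex, was at 1.29 ± 0.11 and 1.39 ± 0.11, and Cdc6, a loader of the replicative helicase, at 0.75 ± 0.13 and 1.38 ± 0.13. On all 4 direct arrays 28 of the 49 were above 0 and 4 below. Of 19 genes for G1 cyclins, their inhibitors and their targets, 5 rose and 3 fell in wild type and 4 and 4 in Ser585Gly. Cdkn1b, the inhibitor p27, fell in both, at −1.29 ± 0.09 and −1.60 ± 0.09, as did the pocket protein gene Rbl2, at −1.09 ± 0.12 and −0.69 ± 0.12. Of 83 measured other mitotic genes, 4 rose and 5 fell in wild type and 6 and 5 in Ser585Gly (medians −0.00085 and 0.07), which is near the 9.51% and 10.5% of all probes called in either direction. Zwilch, a kinetochore protein of the checkpoint, was at 0.88 and 0.92, Trip13, which recycles MAD2, at 0.66 and 0.86, and the anaphase-promoting complex subunit Anapc13 at −0.55 and −0.47. The cohesin subunit Stag2 fell in both populations, at −0.41 and −0.68, and the spindle protein Nusap1 passed as lower in Ser585Gly (−0.72). No test set these lists against each other, and they were drawn up with earlier results of these data known.

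**Figure D3:**
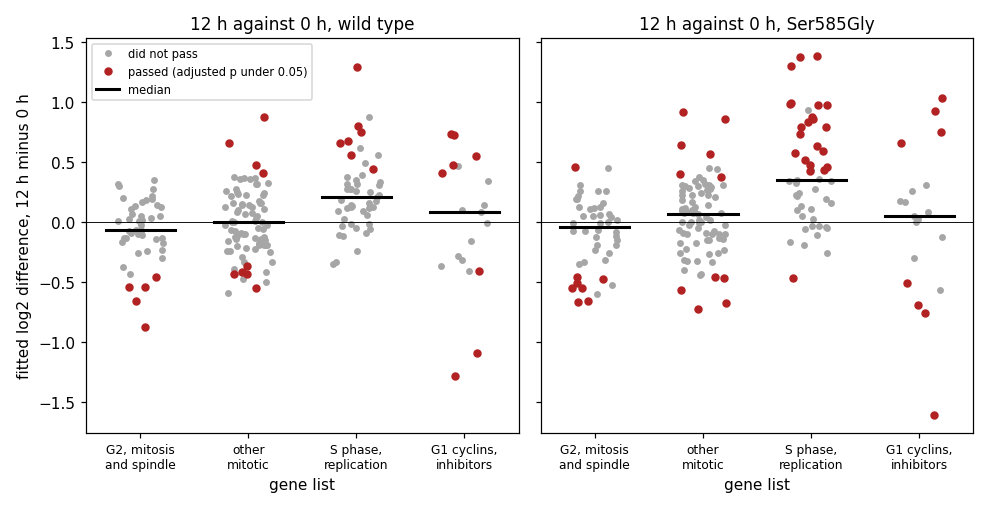
Fitted log2 difference between 12 h and 0 h for each gene of 4 lists, in wild type (left) and Ser585Gly (right); red points passed (adjusted p under 0.05), grey points did not, and bars are list medians. The medians of the G2, mitosis and spindle genes lie at −0.06 and −0.04 and those of S phase and replication genes at 0.21 and 0.35.

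The mutation edges asked whether Ser585Gly cells held more or less of these transcripts than wild type. Few passed. At 0 h Ccnb2 was higher and Nek2 lower in Ser585Gly, which makes 2 of 46 (4.35%), against 4.07% of all probes (2.06% higher and 2% lower). At 12 h Kif23 was lower, 1 of 46 (2.17%), against 1.72% of all probes (0.918% higher and 0.798% lower). The medians of the 46 were −0.05 at 0 h and −0.10 at 12 h, beside 0.00 and −0.01 for all probes. Fitted values were below 0 for 30 of the 46 at 0 h and 37 at 12 h, Kif22 included, beside 10957 and 11383 of all 21795 probes.

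**Figure D4:**
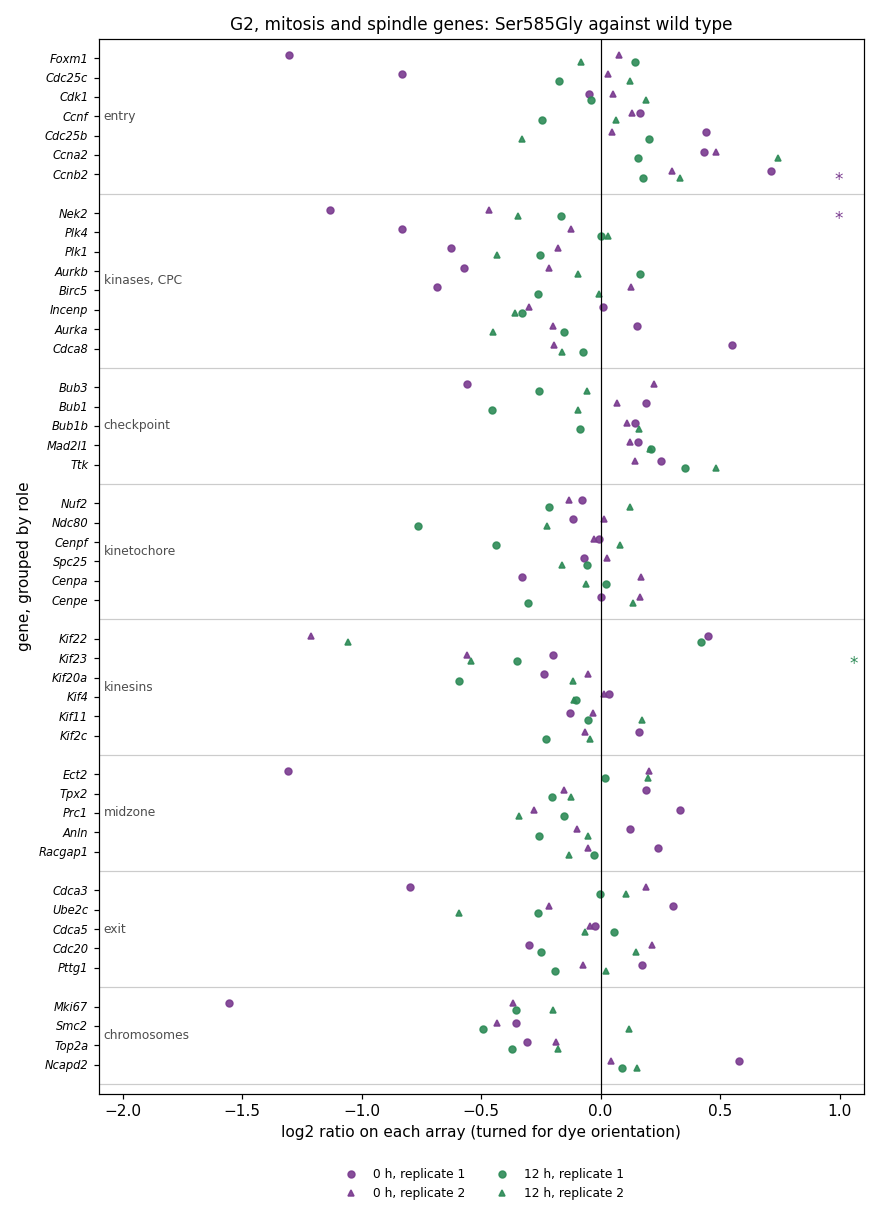
Log2 ratio of Ser585Gly to wild type on each of the 4 mutation arrays for 46 genes grouped by role; circles are replicate 1, triangles replicate 2, and asterisks mark adjusted p under 0.05 at the time of that colour (Ccnb2 and Nek2 at 0 h, Kif23 at 12 h). The circles of replicate 1 at 0 h spread widest, with Mki67 at −1.56 and Foxm1 and Ect2 at −1.31.

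Nek2 read −1.13 and −0.47 at 0 h and −0.17 and −0.35 at 12 h. All 4 arrays were below 0, with a fitted −0.67 ± 0.15 at 0 h (adjusted p = 0.0498) and −0.39 ± 0.15 at 12 h (adjusted p = 0.329). Ccnb2 read 0.71 and 0.30 at 0 h and 0.18 and 0.33 at 12 h, the opposite direction on every array. Its fitted difference was 0.49 ± 0.11 at 0 h (adjusted p = 0.0487) and 0.27 ± 0.11 at 12 h (adjusted p = 0.338). Kif23, the motor subunit of the midzone complex centralspindlin, read −0.20 and −0.56 at 0 h and −0.35 and −0.54 at 12 h. Again all 4 were below 0, with −0.35 ± 0.09 at 0 h (adjusted p = 0.0728) and −0.48 ± 0.09 at 12 h (adjusted p = 0.0438).

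Each of these 3 calls was lost when arrays were left out. Without replicate 1 at 0 h, Nek2 was at −0.37 (adjusted p = 0.154) and Ccnb2 at 0.34 (adjusted p = 0.182), so 0 passed at 0 h, while Kif23 at 12 h stayed past the threshold (−0.48, adjusted p = 0.0273). Kif23 lost its call without any 1 of the other 7 arrays, Ccnb2 without any 1 of the 8, and Nek2 without any but replicate 1 of the mutation edge at 12 h. With dye-swap pairs averaged, 0 passed at either time. With the deposited log2 values 6 passed at 0 h and 11 at 12 h, against 11.7% and 10.1% of all probes.

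The mitotic kinases and passenger genes mostly lay below 0, although only Nek2 at 0 h passed. All 8 were below 0 at 12 h, from −0.07 for Cdca8 to −0.42 for Plk1, and 7 of 8 at 0 h. Plk1 read −0.63 and −0.18 at 0 h and −0.26 and −0.44 at 12 h, and its fitted differences of −0.33 ± 0.12 and −0.42 ± 0.12 had adjusted p = 0.167 and 0.176. Its dimmer probe passed at 0 h, at −0.90 ± 0.15 (adjusted p = 0.0178). This call is given only with all 8 arrays, among them replicate 1 at 0 h, which stood apart. The other 5 kinesins, leaving out Kif22, which was no brighter than empty wells, and the 5 midzone genes also had fitted differences below 0 at 12 h, while entry genes were above 0 in 3 of 7. At 12 h 5 of 6 kinetochore genes were below 0 too, as were 4 of 5 of anaphase and exit. The same held for 3 of 4 genes of chromosome structure and 2 of 5 of the spindle checkpoint. Ccna2, a cyclin of S phase and G2, was the highest of the 46 at 12 h, at 0.49 ± 0.14 (adjusted p = 0.156).

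Replicate 1 at 0 h carried most of the low values. On it 11 of 46 genes lay below −0.5, beside 19.7% of all probes, and on replicate 2 there were 2, beside 3.39%. Mki67 read −1.56 and −0.37 at 0 h and −0.35 and −0.20 at 12 h. Foxm1 read −1.31 and 0.07 at 0 h and 0.14 and −0.08 at 12 h. In Foxm1 only replicate 1 at 0 h was far from 0. Cdca3 read −0.80 and 0.19 at 0 h and −0.002 and 0.11 at 12 h. The pair at 0 h differed by over 0.5 in 15 of 46 genes, against 35.4% of all probes, and the pair at 12 h in 6, against 13.9%. The sign agreed within the pair for 24 of 46 genes at 0 h and 28 of 46 at 12 h, beside 49.7% and 52.7% of all probes.

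Of the genes that fell with time, only Ccnb2 passed on a mutation edge. Cenpa read −0.33 and 0.17 at 0 h and 0.02 and −0.06 at 12 h. Pttg1 read 0.17 and −0.08 at 0 h and −0.19 and 0.02 at 12 h. In both genes the arrays fell on either side of 0. Ncapd2 read 0.58 and 0.04 at 0 h and 0.09 and 0.15 at 12 h, all above 0 without passing. Ccnf read 0.16 and 0.13 at 0 h and −0.25 and 0.06 at 12 h. Kif11 read −0.13 and −0.03 at 0 h and −0.05 and 0.17 at 12 h. Neither had a fitted difference beyond 0.12. Ndc80 read −0.12 and 0.01 at 0 h and −0.76 and −0.23 at 12 h, with −0.49 ± 0.11 at 12 h (adjusted p = 0.0856). Among the other genes given in full, Mad2l1 was above 0 on all 4 mutation arrays, at 0.15 and 0.12 at 0 h and 0.21 on both at 12 h. Top2a was below 0 on all 4, at −0.31 and −0.19 at 0 h and −0.37 and −0.18 at 12 h. Neither passed at either time. Cdk1 read −0.05 and 0.05 at 0 h and −0.04 and 0.19 at 12 h. Cdc20 read −0.30 and 0.21 at 0 h and −0.25 and 0.15 at 12 h. These 2 genes had a different sign on the arrays of each pair.

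The last comparison asked whether the change from 0 h to 12 h differed between the populations. No gene of the 46 passed (limma), against 0.0551% of all probes, and at an unadjusted p under 0.05 there were 0 with a larger value in Ser585Gly and 3 with a smaller one, beside 821 and 708 of all probes. The 3 were Ndc80 at −0.43 ± 0.13 (95% interval −0.72 to −0.13, adjusted p = 0.563), Aurka at −0.26 ± 0.11 and Bub1 at −0.29 ± 0.12. Ccnf, Ccnb2, Kif11, Ndc80 and Mad2l1 passed in Ser585Gly only and Mki67 and Cdca3 in wild type only, but the test of the difference did not separate the populations for any of them. For Pttg1 the difference was −0.01 ± 0.12, with a 95% interval of −0.29 to 0.27. For Mki67 it was 0.28 ± 0.25, with an interval of −0.29 to 0.84, and −0.04 in the fit that leaves out the array that stood apart.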

How the data were processed

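Gene membership and all gene lists were chosen with earlier results of these data known. The scanner files held foreground and background intensity for Cy5 and Cy3 per spot, per the file headers. The authors also deposited log2 ratios (Cy5 over Cy3), made with limma per the submitters' processing notes, whose further steps are not given here. Probe names are absent from the scanner files and were assigned through a recovered spot order. Of 21795 probes, 16 were assigned from their ratio values alone. In the deposited order, the deposited ratios correlated with the scanner ratios at 0.948 to 0.996 per array. When all 8 ratios were compared, 89.6% of probes were closest to the scanner spot of their deposited position. Both values link the deposited ratios to scanner spots and do not bear on the recovered order of the names. The deposited names follow a 48-pin order and the spots a 24-pin order. All gene names rest on the recovered order, chosen after the data were seen: the median brightness percentile of 244 empty wells was 1.35 there and 47.5 as deposited, and 1050 probe pairs of 1 gene, not used to choose it, had time ratios that correlated at 0.427 and −0.061. Symbols came from the supplied annotation, updated by gene identifier for 15972 probes.

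Background was corrected by normexp (offset 50) and arrays were normalised by loess (span 0.3). limma 3.58.1 in R 4.3.3 fitted mutation, time, their interaction and dye over 8 arrays (4 residual and 4.35 prior degrees of freedom, two-sided tests). The fit was tested on simulated data. Members past the threshold for time, and Cdk1, Plk1, Cdc20, Top2a, Mki67 and Foxm1, are given on every array. Nek2 and Kif23, which passed on a mutation edge only, are given on every mutation array. Of other lists at most the 4 largest changes per comparison are given. Alternatives were other background corrections, normalisations, priors and filters, the deposited values, averaged dye swaps, no dye term and each array left out. The number of arrays limits the precision.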

Additional observations from a re-analysis of the deposited data

How the results depend on the processing

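Arrays of different edges could not be paired, because the labels give no replicate numbers. The numbers used here mark dye orientation, which the dye term takes up. No named call reversed direction, and 0 genes passed for the difference between the populations under any alternative run. The medians of the 46 genes, all close to 0, moved by more than the SD between the arrays of an edge as follows. In wild type the median for time was −0.022 with median centring, −0.019 with print-tip loess, −0.033 with arrays scaled to each other, −0.0051 with the deposited values and −0.065 to −0.039 with 1 array left out. In Ser585Gly it was −0.025 without background correction, 0.011 with median centring, −0.063 with scaling, −0.029 with the deposited values, −0.069 with bright probes only, −0.072 with the median over a gene's probes and −0.074 to −0.018 with 1 array left out. For the mutation at 0 h it was −0.059 with print-tip loess and −0.062 to −0.034 with 1 array left out, and for the difference between the populations −0.047 with scaling and −0.074 to 0.0063 with 1 array left out. Counts of genes past the threshold moved more. In wild type 5 passed for time, and 2 with median centring, 14 with print-tip loess, 9 with arrays scaled to each other, 14 with the deposited values, 0 with dye-swap pairs averaged, 3 without a dye term, 8 with a trended prior and 0 to 8 with 1 array left out. In Ser585Gly 8 passed, and 4, 17 and 17 with median centring, print-tip loess and the deposited values, 3 with pairs averaged and 0 to 12 with 1 array left out. For the mutation at 0 h 2 passed, and 0 with a normexp offset of 10, 1 with median centring, 4 with print-tip loess, 6 with the deposited values, 0 with pairs averaged, 0 without a dye term and 0 to 1 with 1 array left out. For the mutation at 12 h 1 passed, and 0 with offset 10, 0 with median centring, 6 with print-tip loess, 2 with scaling, 11 with the deposited values, 0 with pairs averaged, 0 without a dye term, 2 with a trended prior and 0 to 1 with 1 array left out. The causes were not tested; averaging pairs leaves 1 residual degree of freedom and a left-out array leaves 1 for its edge, whose spread is then taken from the rest. Cenpa, Ncapd2 and Ccnf for time in Ser585Gly kept their calls under 17 of 19 alternatives each, and Pttg1 under 15. Kif11 and Ndc80 there kept theirs under 10 and 9. For time in wild type Pttg1 kept its call under 14 of 19, Cdca3 under 11, and Mki67, Cenpa and Ncapd2 under 10 each. Ccnb2 for the mutation at 0 h kept its call under 7. Median centring moved the share of higher calls over all probes from 55.0% to 65.1% for time in Ser585Gly and from 50.8% to 41.0% for the mutation at 0 h, where averaged pairs gave 39.8%.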
